A study of Mus musculus with 5 samples.

Results

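Retained sites were defined here as DRACH positions on annotated exons of mouse embryonic stem cells (mESCs) that were methylated at 25% or more of the valid calls in the DMSO library and whose level in the STM2457 library was at least 0.5 times the DMSO level, with more than 25 valid calls in both. There were 378 such sites, on 260 genes, among 5492 DRACH sites of 25% or more on 1590 genes, a share of 6.88%. The remaining 5114 sites are called the other sites below. The retained sites were chosen by the DMSO and STM2457 levels, so both levels and their ratio are given as a description, without a test.

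N6-methyladenosine (m6A) is the commonest internal modification of mRNA. It is placed on the adenosine at the centre of the DRACH motif (D is A, G or T, R is A or G, H is A, C or T, in DNA letters) by a nuclear complex in which METTL3 is the catalytic subunit, METTL14 helps to bind the RNA and WTAP holds the complex together. Exon junction complexes keep this writer away from the mRNA near splice junctions, so m6A is found mostly in long internal exons and in the last exon around the stop codon. STM2457 inhibits the catalytic site of METTL3. METTL5 is a different methyltransferase, which modifies an adenosine of 18S ribosomal RNA.

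Native mRNA was read by nanopore direct RNA sequencing, in which a basecalling model scores each adenosine of each read as m6A, as unmodified, as another modification (inosine or 2′-O-methyladenosine) or as too uncertain to call. The methylation level (%) of a position is the share of m6A among its valid calls, which include the other modifications, and the uncertain calls are kept apart as failed calls. For METTL3 inhibition, E14 mESCs had received 30 µM STM2457 or 0.025% v/v DMSO for 48 h. The cells of both these libraries carried a 2C::3xtbGFP-PEST and a Zscan4::mCherry-PEST reporter, a doxycycline-driven APOBEC1-YTH cassette that was not induced and a homozygous FKBP12 F36V knock-in at the C-terminus of METTL3, likewise not induced. The other dataset held a WT library and 2 Mettl5-KO clones of a cell line made earlier, so each knockout library is a single clone. Each condition or clone had 1 library, and every test below compares libraries rather than conditions. In the labels, the DMSO and STM2457 libraries carry another date than the WT and clone libraries, so a difference between DMSO and WT cannot be told apart from cell line and batch. The libraries held 17897440 to 71574467 valid calls over the deposited positions, and 8.31% to 9.15% of all calls had failed. Transcripts of all 10 mESC marker genes checked were covered in DMSO and of 8 of 10 in WT, counting any listed position as covered. Klf4 had only 2 positions in DMSO, with at most 25 valid calls, which is not above the minimum used for sites. Of the markers of other lineages, the endoderm (4 genes) and mesoderm (3 genes) markers were not covered, whereas Tubb3 and Vim were covered in DMSO.

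The following 25-base transcript sequences surround the 8 retained sites with the highest ratio of levels among those with at least 100 valid calls in both libraries. They are written 5′ to 3′ in DNA letters with the DRACH motif in capitals, the called adenosine at its centre, and positions on mm10. They are shown to give the transcript context of the retained sites whose level changed least at that coverage.
Nup62 (chr7:44830010-44830034, plus strand, coding sequence): atgcacacatGGACTctcttcagtg
Hnrnpa0 (chr13:58127199-58127223, minus strand, 3′ UTR): agtcattgatGGACTctattttttt
Rbmxl1 (chr8:78506300-78506324, minus strand, coding sequence): gttattccatGAACTttaacatgag
Pcbp1 (chr6:86525055-86525079, minus strand, coding sequence): aaccacccatGAACTcaccattcca
Klf2 (chr8:72320982-72321006, plus strand, 3′ UTR): ccttgcaaacAGACTgctatttatt
Polr1d (chr5:147078855-147078879, plus strand, coding sequence): ccagcataaaGGACTataaagctaa
Zfp57 (chr17:37010505-37010529, plus strand, coding sequence): aagaagattcGGACTgatttctgac
Hspa5 (chr2:34776142-34776166, plus strand, 3′ UTR): tgtaaatactGGACTcaggaacttt

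The next sequences are the 3 retained sites just inside the ratio of 0.5 and the 3 sites just outside it, among those with at least 100 valid calls in both libraries. The motif was GGACT at all 3 sites inside. Outside, it was GGACT at Nxt1, GGACA at Aars and GAACT at Sf3b5.
Yars, inside (chr4:129219121-129219145, plus strand, 3′ UTR): ggatggagatGGACTgaaactgtgg
Rpl10l, inside (chr12:66283698-66283722, minus strand, 3′ UTR): gcattcctgaGGACTttgctggcag
Epop, inside (chr11:97628827-97628851, minus strand, coding sequence): tgcgtcctcaGGACTctccgaccaa
Nxt1, outside (chr2:148675877-148675901, plus strand, 3′ UTR): actggatgttGGACTcccagaatcc
Aars, outside (chr8:111057323-111057347, plus strand, 3′ UTR): ccaaagcactGGACAgctctgttgg
Sf3b5, outside (chr10:13009025-13009049, plus strand, 3′ UTR): cgctccttgtGAACTgtgcagaagg

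The last set holds the 3 retained sites of Sox2, a core pluripotency factor, and the retained Acat2 site, which had a low level in DMSO. They are shown because all 3 Sox2 sites had different DRACH motifs, and the Acat2 motif TGACA was seen at this retained site alone.
Sox2 (chr3:34651282-34651306, plus strand, coding sequence): tgcgcccagtAGACTgcacatggcc
Sox2 (chr3:34651371-34651395, plus strand, 3′ UTR): tgtgagggctGGACTgcgaactgga
Sox2 (chr3:34651378-34651402, plus strand, 3′ UTR): gctggactgcGAACTggagaagggg
Acat2 (chr17:12943055-12943079, minus strand, 3′ UTR): gaactggaacTGACAgtcaaataaa

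Retained sites were almost fully methylated before inhibition. In DMSO the median was 95.8% at retained and 52.5% at other sites, and in STM2457 the medians were 58.7% and 8.91%. The median ratio of STM2457 to DMSO level was 0.615 at the retained and 0.179 at the other sites. Of the 378 retained sites, 309 had 90% or more in DMSO, 59 of them 100%, whereas 40 lay from 75% to under 90%, 10 from 50% to under 75% and 19 under 50%.

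**Figure D1:**
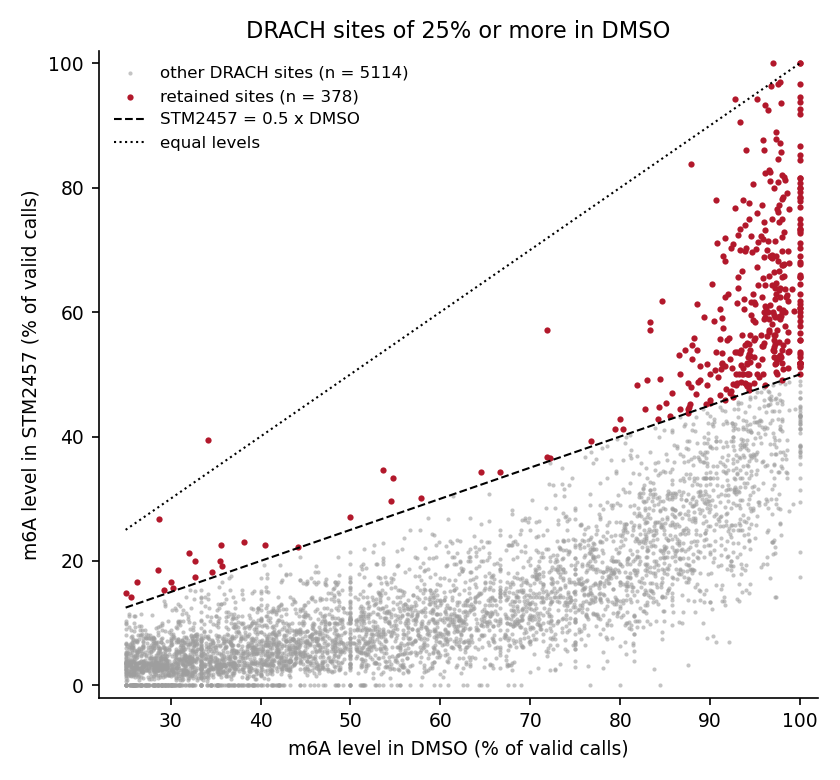
Methylation level in STM2457 (vertical axis, %) against DMSO (horizontal axis, %) at each of the 5492 DRACH sites of 25% or more in DMSO. Red points are the 378 retained sites, which lie on or above the dashed line of 0.5 times the DMSO level and crowd at its right end.

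The share of sites that were retained rose steeply with the DMSO level. It was 0.801% of 2371 sites from 25% to under 50%, 0.687% of 1456 sites from 50% to under 75%, and 4.37% of 916 sites from 75% to under 90%. It reached 27.3% of 366 sites from 90% to under 95% (95% Clopper-Pearson interval 22.8% to 32.2%) and 54.6% of 383 sites at 95% or more (49.4% to 59.6%). These intervals cover counting error only. At 90% or more, the background share was 41.3% (309 of 749 sites), and the other 440 sites of that level are used below as a second set for comparison.

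Expressed as odds (m6A calls over the remaining valid calls, with 0.5 added to each), methylation fell at most retained sites too. The median fall of the odds was 11-fold at retained and 12.8-fold at other sites, and 155 of the 378 retained sites fell by at least the median of the others. The median fall over all sites grew with the DMSO level, from 9.70-fold in the lowest class to 29.9-fold in the highest. Within the sites of 90% or more in DMSO, the retained sites fell 12.8-fold and the others 31.4-fold. At sites of 100% in DMSO the odds rest on the added 0.5 and so on the number of calls. At 53 retained sites the odds fell by less than 4-fold.

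**Figure D2:**
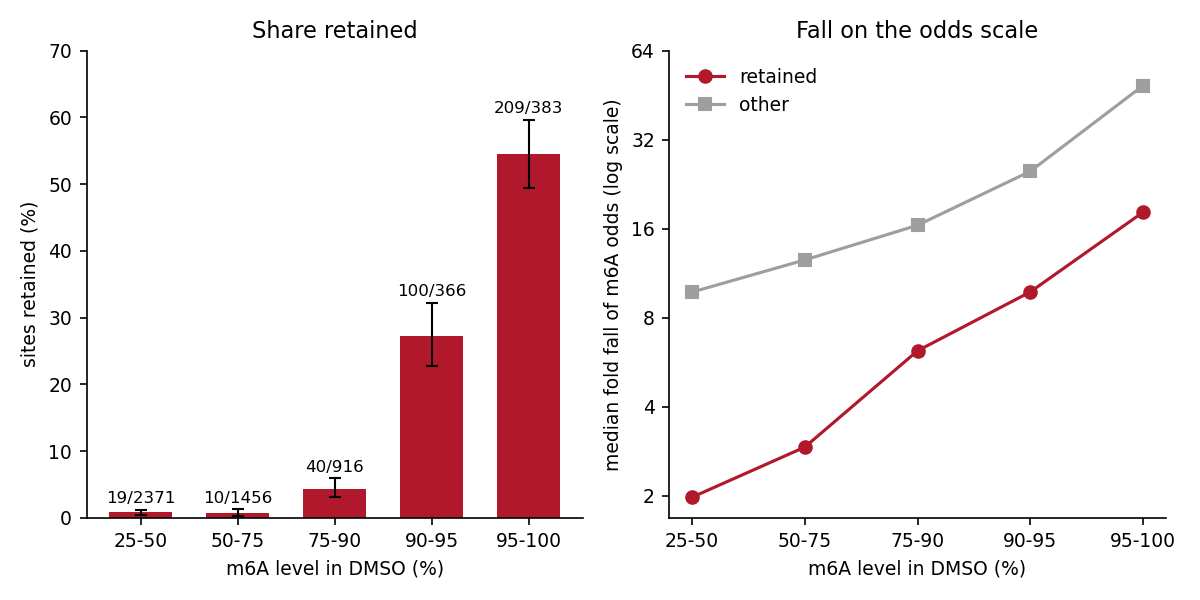
Left, the share of DRACH sites retained in each class of DMSO level, with the number retained over the number of sites and 95% Clopper-Pearson intervals. Right, the median fold fall of the m6A odds from DMSO to STM2457 (log axis) for retained and other sites, which rises from 1.97-fold to 18.2-fold at retained sites and from 9.76-fold to 48.8-fold at other sites.

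Among the 40 retained sites with at least 100 valid calls in both libraries, DMSO levels ran from 87.9% to 99.4% and STM2457 levels from 48.1% to 96.9%. The site least changed lay in the coding sequence of Nup62, a nucleoporin of the central channel of the nuclear pore, in exon 2 of 2. It had 130 m6A among 133 calls in DMSO (97.7%) and 125 among 129 in STM2457 (96.9%). The intervals were 93.5% to 99.5% and 92.3% to 99.1% and overlapped almost fully. The second retained Nup62 site fell to 52.4% in STM2457, so both kinds of response stood on the same transcript. Hnrnpa0, an RNA-binding protein encoded by a single exon, followed with 97.3% in DMSO (143 of 147 calls) and 89.0% in STM2457 (113 of 127).

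Pcbp1, a poly(C)-binding protein whose transcript also has a single exon, kept 75.9% (418 of 551 calls) after 95.2% in DMSO (700 of 735). Rbmxl1, an expressed retrocopy of the RNA-binding protein gene Rbmx, held 2 retained sites. The one in the coding sequence had 97.5% and 80.9% in DMSO and STM2457, and the one in the 3′ UTR 98.7% and 69.8%. Rbmxl1 and its parent gene are near copies, so the origin of these reads is uncertain.

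Klf2, a transcription factor of naive pluripotency, had 97.7% in DMSO (253 of 259 calls) and 77.3% in STM2457 (163 of 211). Polr1d, a subunit shared by RNA polymerases I and III, went from 97.4% to 76.6%. Zfp57, which protects imprinted DNA methylation, went from 90.7% (98 of 108) to 71.1% (91 of 128). Its STM2457 level lay below the DMSO interval of 83.6% to 95.5%, which was also so for Klf2 and Polr1d. The 3′ UTR of Epop, a partner of Polycomb repressive complex 2, had 93.0% and 61.4%.

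Hspa5, the chaperone BiP of the endoplasmic reticulum, had 95.3% in DMSO (143 of 150 calls) and 71.2% in STM2457 (151 of 212). Ywhah, a 14-3-3 adaptor, had 98.2% and 72.8%. Both values in STM2457 were well under the DMSO level. The STM2457 median of the other sites was 8.91% over all levels and 34.5% at 90% or more in DMSO. The rule chose sites by this level, so the gap is a description. Imp3, a protein of ribosomal RNA processing, went from 95.2% to 67.2%, and Nop2, a methyltransferase of ribosomal RNA, from 96.0% to 60.1%. The immediate early gene Ier2 held 2 retained sites, at 93.1% and 63.9% and at 96.5% and 60%. Tuba4a, an alpha-tubulin, had 97.1% and 66.4%, and Ccne1, which encodes cyclin E1, 94.5% and 61.6%. The mitochondrial proteins Coa3 and Tmem11 completed the set, with 97.7% and 63.6% in Coa3 and 98.3% and 63.7% in Tmem11.

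The deepest coverage was on Rps4l, annotated as a pseudogene related to the ribosomal protein gene Rps4x, so that reads may be shared. At its GGACT site, 1531 of 1562 calls were m6A in DMSO (98.0%) and 693 of 993 in STM2457 (69.8%, interval 66.8% to 72.6%). At its GGACA site 10 bases downstream, the levels were 97.9% and 52.8% (49.6% to 55.9%). The neighbouring sites therefore had nearly equal DMSO levels and intervals in STM2457 that did not overlap. Both sites can be read on the same molecules, which these separate intervals do not take into account.

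At 5 retained sites the STM2457 level equalled or exceeded the DMSO level, and these were looked up after the ratios were seen. The sites of B3gnt7 (34 of 34 and 31 of 31 calls) and Slc35a4 (31 of 31 and 28 of 28) were fully methylated in both libraries. Bid, a pro-apoptotic BCL2 relative, had 92.8% in DMSO and 94.3% in STM2457, and Eid1 97.0% and 100%. Ints11, the endonuclease of the Integrator complex, had 34.2% (27 of 79) and 39.4% (13 of 33). At this Ints11 site 28.8% of calls had failed in DMSO and 40% in STM2457, against medians of 3.33% and 3.03% at retained sites. For each of the 5 sites the intervals of the DMSO and STM2457 levels overlapped, and at this coverage a modest fall could have been missed.

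Around the ratio of 0.5, sites on either side had much the same values. With at least 100 calls in both libraries, the retained sites nearest to it were Yars (94.1% and 48.1%, ratio 0.512), Rpl10l (98.7% and 51.0%, 0.516) and the coding sequence site of Epop (97.3% and 50.3%, 0.517). The nearest sites left out were Nxt1 (97.0% and 48.2%, 0.497), Aars (81.1% and 40.3%, 0.497) and Sf3b5 (88.4% and 43.1%, 0.487). The 95% interval of the ratio lay wholly at or above 0.5 for 174 retained sites and reached below it for 204, and among the other sites 1976 had an upper limit of 0.5 or more.

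A small group of 24 retained sites, each on a different gene, had under 60% in DMSO. Of these, 21 lay in a 3′ UTR and 5 were GGACT. Their lower coverage of the 2 libraries had a median of 31 calls and did not exceed 58. The interval of the ratio stayed at or above 0.5 at 2 of them, Acat2 and Ints11. Acat2, an acetyl-CoA acetyltransferase, had 28.7% in DMSO (27 of 94 calls) and 26.8% in STM2457 (15 of 56). The Acat2 site also had the largest share of failed calls of all retained sites in DMSO, 32.9%, against a median of 3.33%. In STM2457 its share of failed calls was 42.3%, against a median of 3.03%. Sar1a, a GTPase of vesicle budding, had 26.3% and 16.7%, and the mitochondrial carrier gene Slc25a13 29.3% and 15.4%. The median fall of the odds in the group was 2.11-fold. None of the 24 positions was listed in the Mettl5 dataset, so their levels there are not known. Per the study, a position was kept only if its coverage was above 25 reads in every sample of a dataset. An unlisted position may therefore still have been read in some of these libraries.

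By place in the transcript, the retained sites differed little from the others at the ratio of 0.5, but not at a stricter one. Here and for the other features, shares are set side by side without a test. They were in the 3′ UTR in 246 cases (65.1%, others 68.0%), in coding sequence in 123 (32.5%, others 30.4%), in the 5′ UTR in 6 and in noncoding transcripts in 3. Among sites of 90% or more in DMSO the 3′ UTR share was 63.8% for retained and 62.5% for other sites. With a ratio of 0.75 or more (83 sites), the 3′ UTR share was 50.6%, against 68.1% of the remaining sites. The last or only exon held 90.7% of retained and 92.5% of other sites. The median retained site in a coding transcript lay 87 bases after the stop codon, and the median other site 93 bases after it.

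Retained sites stood farther from splice junctions than the others. A junction lay within 200 bases of 29 retained sites (7.67%) and of 24.8% of the other sites. At 90% or more in DMSO, where the level differs less between the sets, the shares were 6.80% and 19.1%. Within 100 bases of a junction there was 1 retained site, against 267 of the other sites (5.22%). The exception, named after its value was seen, was Pgrmc2, a membrane progesterone receptor component, with 85.7% and 47.1% at a site 93 bases from the junction. The exons of retained sites were longer, with a median of 1440.5 bases against 1138, but at 90% or more in DMSO the medians were 1460 and 1363 bases. Single-exon transcripts held 10.6% of retained and 4.81% of other sites, and 12% and 7.95% at 90% or more. Hnrnpa0, Pcbp1, Imp3, Ier2, Epop and Sox2, described here, are all single-exon transcripts in the annotation used.

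Retained sites also had close neighbours more often. Another exonic position of 25% or more in DMSO, with any motif, lay within 20 bases of 28.0% of retained and 19.7% of other sites, and within 100 bases of 83.6% and 65.3%. At 90% or more in DMSO the shares within 100 bases were 84.8% and 76.1%. The paired sites of Rps4l, of Hspa5 and of the Sox2 3′ UTR are examples, each with both members retained. Neighbouring calls on the same reads are not independent.

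The motif GGACT was the most frequent. It was found at 182 retained sites (48.1%) and at 1169 of the other sites (22.9%). Next came GGACA with 58 sites, AGACT with 49, GAACT with 44, and GGACC and TGACT with 14 each. Of all 1351 GGACT sites of 25% or more, 13.5% were retained. At 90% or more in DMSO, however, GGACT made up 51.1% of retained and 45.9% of other sites, a gap much smaller than over all levels.

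Flanking bases beyond the motif were also unequal. Counting from the methylated adenosine, T stood at position -3 of 45.0% of retained and 29.6% of other sites, and of 47.6% and 35.2% at 90% or more in DMSO. T stood at position +4 of 51.1% and 38.1%, and of 52.8% and 43.6% at 90% or more. A gap of similar size at 90% or more lay farther away, with T at position +8 of 31.1% and 21.8%. Over all levels the shares of T at +8 were 29.6% and 24.4%. At 90% or more, 51.4% of the 146 sites with T at both -3 and +4 were retained. With T at either of them alone it was 43.8% of 365, and with neither 31.1% of 238. Over all levels, T at -3 and T at +4 had the widest gaps among the flanking bases, 15.4 and 12.9 points. Their combination was scored on sites from the same set. The order of these shares therefore follows in part from the choice of bases and is only a description. The letters AT directly before the motif, present at the Nup62, Hnrnpa0, Rbmxl1 and Pcbp1 sites printed above, preceded 18% of retained and 8.90% of other sites, and 18.8% and 12.5% at 90% or more. These letters were singled out after the sequences were seen, and only the transcript strand was read.

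**Figure D3:**
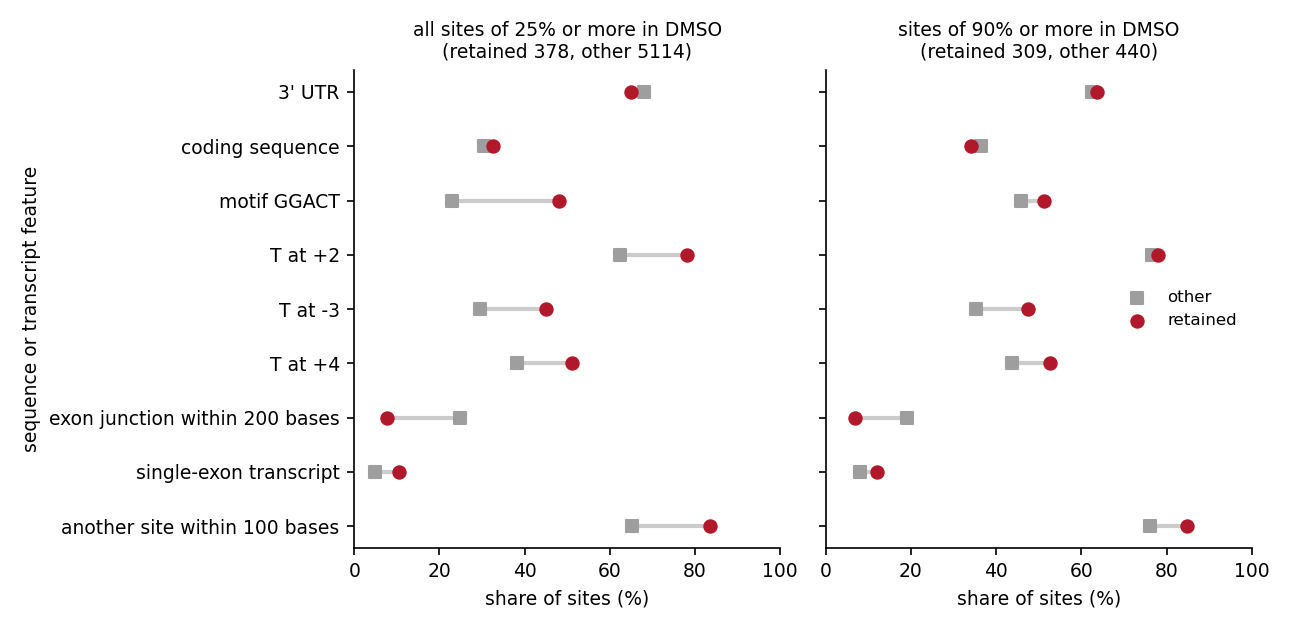
Share of retained (red circles) and other sites (grey squares) with each feature, for all sites of 25% or more in DMSO (left) and for those of 90% or more (right). The gap for GGACT narrows from left to right, whereas those for junctions within 200 bases (6.80% and 19.1% on the right) and T at -3 (47.6% and 35.2%) remain visible.

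Retained and other sites mostly shared transcripts. A single retained site was found on 179 genes, 2 on 57 genes and 3 or more on 24 genes. Of the 260 genes, 255 also held a DRACH site of 25% or more that was not retained, and these genes carried 373 of the 378 retained sites. The other 5 genes had no DRACH site of 25% or more besides the retained one.

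The gene with the most retained sites was Ints5, which encodes a subunit of the Integrator complex, with 6 of its 22 sites, all in the coding sequence of exon 2 of 2. They had 95% to 100% in DMSO and 51.9% to 94.6% in STM2457. The other Ints5 sites had medians of 78.2% and 18.9%. Among them were 2 sites at 100% in DMSO, and the highest STM2457 level among them was 48.3%. The 5′-most retained Ints5 site lies where exons of a second gene overlap.

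Taf5l, a subunit of the PCAF and SAGA coactivator complexes, had 5 of 21 sites retained. Its 3 coding sequence sites had 100%, 92.2% and 98.0% in DMSO and 93.8%, 46.9% and 82.0% in STM2457, in 5′ to 3′ order. The latter pair lie 14 bases apart. Its 2 sites in the 3′ UTR had 88.9% and 57.9% in DMSO and 49.1% and 30.2% in STM2457.

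Ttc4, a cochaperone of HSP90, had 5 of 10 sites retained, all in the 3′ UTR of exon 10 of 10. In 5′ to 3′ order their levels were 97.1%, 97.2%, 100%, 30.3% and 87.9% in DMSO and 80.0%, 56.3%, 65.6%, 15.6% and 83.9% in STM2457. Coverage of the sites of Ttc4 did not exceed 36 calls.

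Cbx7, the chromodomain subunit of Polycomb repressive complex 1, had 4 of 18 sites retained. Their levels in 5′ to 3′ order were 97.9%, 100%, 100% and 32.7% in DMSO and 93.5%, 72.7%, 77.8% and 20% in STM2457. The other Cbx7 sites had medians of 51.8% and 10.5%. Dnajb1, an HSP40 cochaperone of HSP70, had 4 of 10 retained, with 100%, 94.1%, 98.8% and 97.8% in DMSO and 51.9%, 55.1%, 67.9% and 87.1% in STM2457. BC003965 had 4 of 9 retained, at 94.7% to 100% and 56.1% to 71.1%, against medians of 47.5% and 6.67% at its other sites.

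**Figure D4:**
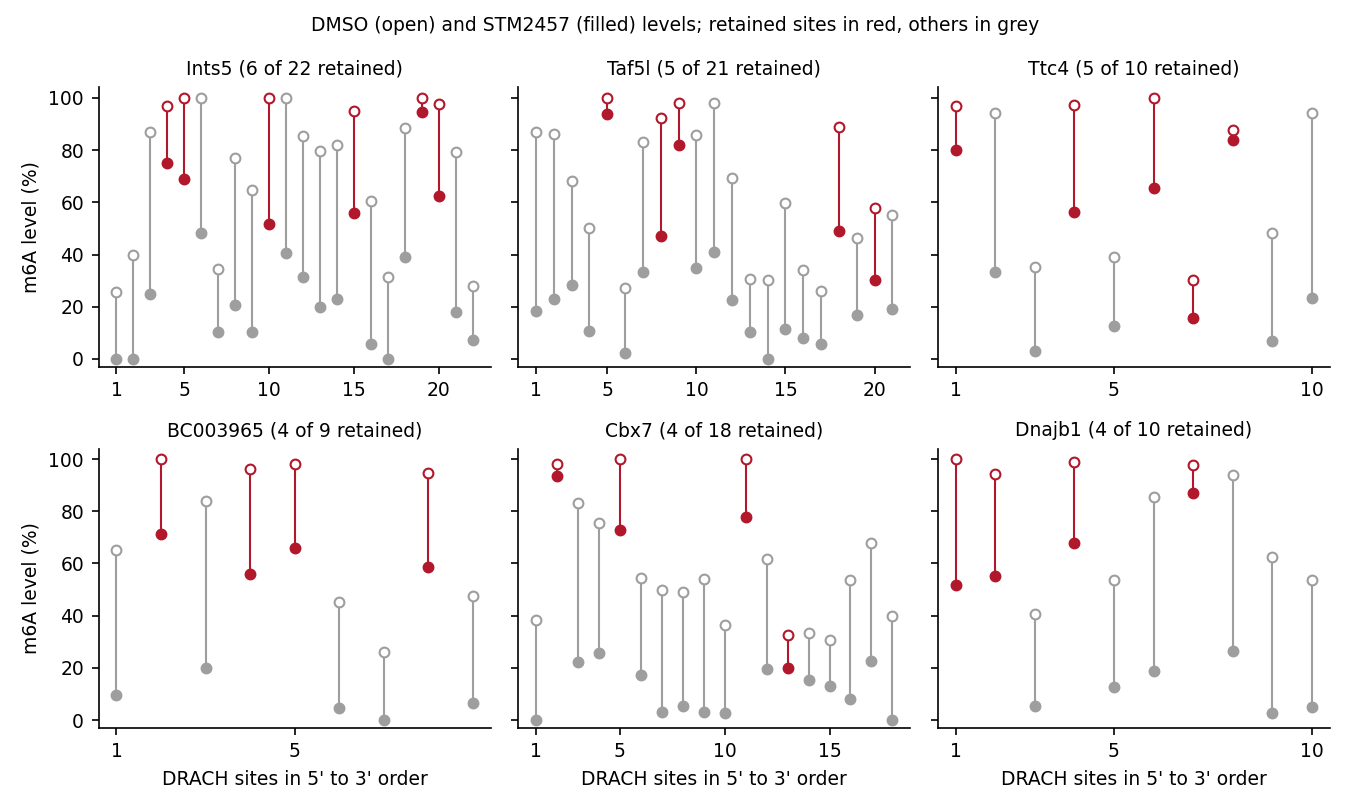
Methylation level in DMSO (open circles) and STM2457 (filled circles), in %, at each DRACH site of 25% or more in DMSO on the 6 genes with the most retained sites, in 5′ to 3′ order. Retained sites (red) and other sites (grey) are interspersed, as in Ints5, where 6 of 22 sites were retained.

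By gene list, no list is called enriched here, and each count is set beside the 6.88% of all sites. Of the m6A machinery, 3 of 18 sites were retained (16.7%), all on Ythdf1, a cytoplasmic m6A reader. They lie in exon 4 of 5, with DMSO levels of 94.0%, 100% and 98.0% and STM2457 levels of 86.0%, 91.8% and 49.0% in 5′ to 3′ order. Each of the 3 Ythdf1 sites was GGACA and rests on 47 to 51 calls.

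Of the pluripotency genes, 4 of 36 sites were retained (11.1%), the Klf2 site and 3 on Sox2. The Sox2 sites had 97.8%, 97.7% and 100% in DMSO and 59.4%, 60.6% and 59.4% in STM2457, on 32 to 46 calls. The other Sox2 sites had medians of 44.2% and 5.26%.

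Of the heat shock and chaperone genes, 7 of 52 sites were retained (13.5%). They were 2 on Hspa5, 4 on Dnajb1 and 1 on Hspbap1, which has the name but is not a chaperone. Of the cytosolic ribosomal protein genes, 3 of 18 were retained (16.7%), 2 on Rps4l and 1 on Rpl10l, a retrocopy of Rpl10. Both are near copies of other ribosomal protein genes, so that none of these 3 can be assigned to a ribosomal protein gene with certainty. Of the zinc finger proteins, 6 of 68 were retained (8.82%), among them 3 in the coding sequence of Zfp57, with 98.0%, 83.0% and 90.7% in DMSO and 60%, 49.1% and 71.1% in STM2457.

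The lists of hnRNPs (1 of 20 sites, Hnrnpa0), SR splicing factors (1 of 15, Srsf4) and histones (1 of 12, H2afx) each held a single retained site. Srsf4 had 98.0% and 67.5%, and H2afx, the histone variant of the DNA damage response, 94.9% (520 of 548 calls) and 52.7% (106 of 201). Translation factors had 0 of 49 sites retained. Among sites of 90% or more in DMSO, of which 41.3% were retained over all genes, the counts were 3 of 3 for the m6A machinery, 4 of 7 for pluripotency, 3 of 3 for ribosomal proteins, 7 of 12 for heat shock and chaperones, 5 of 15 for zinc finger proteins, 1 of 5 for hnRNPs, 1 of 1 for SR factors, 1 of 2 for histones and 0 of 2 for translation factors.

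The Mettl5 dataset did not enter the choice of sites. It covered 62 retained sites by more than 25 valid calls in all of its libraries. There, WT had a median of 94.4% and clones #1 and #2 had 96.8% and 96.6%, while the medians at 1156 other sites were 39.3%, 43.6% and 43.2%. All 62 had 82.8% or more in DMSO and 75% or more in WT. The lowest WT level, 76.6%, was in the 3′ UTR of Tardbp, an RNA-binding protein, and 50 of the 62 had 90% or more in WT. Against 85 other sites of 90% or more in DMSO, whose medians were 89.7%, 92.2% and 92.2%, the 58 retained sites of that level had medians of 94.6%, 97.0% and 96.8%. The DMSO medians of these 85 and 58 sites were 94.2% and 97.2%, so the sets were not matched in DMSO level.

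Read from the WT side, the share of retained sites again rose with the level. None of 976 sites under 75% in WT was retained, against 8.16% of 147 sites from 75% to under 90%, 42.3% of 52 from 90% to under 95%, and 65.1% of 43 at 95% or more. The retained sites covered there all had 82.8% or more in DMSO. Retained sites of lower DMSO level are therefore absent from these shares. Of the 95 sites with 90% or more in WT that were also of 25% or more in DMSO, 50 were retained (52.6%).

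**Figure D5:**
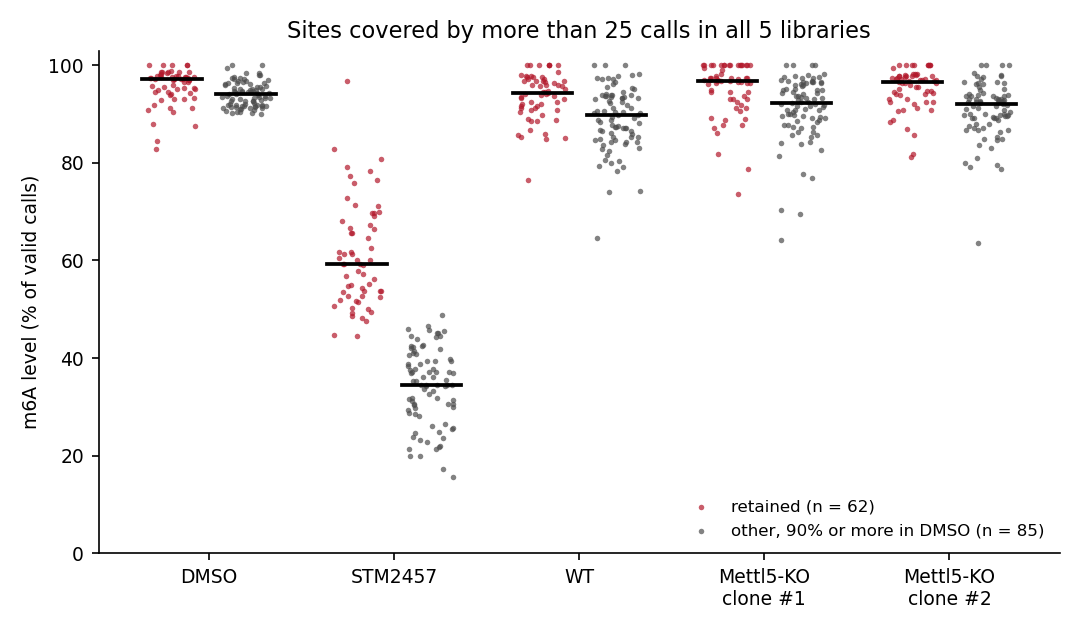
Methylation level (%) in each of the 5 libraries at the 62 retained sites covered in all of them (red) and at 85 other sites of 90% or more in DMSO (grey), with the median as a bar. The STM2457 column separates the sets because it chose them, whereas in WT, clone #1 and clone #2 both sets lie high, with the retained medians at 94.4%, 96.8% and 96.6%.

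Single sites gave the same picture. Nup62 had 100% in WT, clone #1 and clone #2, on 46, 45 and 56 calls. Pcbp1 had 93.3%, 93.1% and 93.2% on 178, 232 and 279 calls. Klf2 had 91.3%, 96.6% and 100%, and Ywhah 97.6%, 97.1% and 94.7%. The 3 Sox2 sites had 92.1% to 97.3% in WT, 93.1% to 100% in clone #1 and 92.6% to 98.2% in clone #2.

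The retained sites with the highest WT levels among those with at least 50 calls in all 5 libraries began with Slc2a1, a glucose transporter, with 97.6%, 97.5% and 99.4% in WT, clone #1 and clone #2 after 97.2% in DMSO and 51.7% in STM2457. The Rps4l GGACT site had 96.9%, 96.7% and 91.3%, and its GGACA site 96.4%, 99.4% and 100%. H2afx had 94.3%, 94.6% and 97.6%. Mcl1, an anti-apoptotic BCL2 relative, had 94.2%, 92.4% and 98.2% in these libraries, with 98.6% in DMSO and 61.8% in STM2457. Zfp207, a spindle assembly factor, had 93.9%, 95% and 90.8%, with 90.9% and 49.5% in DMSO and STM2457. Apex1, the endonuclease of base excision repair, had 91.2%, 97.4% and 97.0%, with 94.4% and 52.0%.

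Each clone was compared with WT by Fisher's exact test on m6A and remaining valid calls (two-sided, Benjamini-Hochberg adjusted over 2329 DRACH sites with more than 25 calls in the 3 libraries and a pooled level of 10% or more). A site counted as changed where both clones had an adjusted p under 0.05 in the same direction. Among all sites, 2 were lower (0.0859%) and 0 were higher (0%), and both lower ones lay on Gm42418, an annotated gene whose exon holds 18S ribosomal RNA sequence. Among the 62 retained sites, 0 were lower and 0 higher by this test. Their WT levels of 76.6% or more left little room for a rise.

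At an unadjusted p under 0.05, 0 retained sites were lower in either clone, and 3 were higher in each clone, 2 of them in both. Those 2, named after the values were seen, were the GAACT site of Hspa5 and a 3′ UTR site of G3bp2, a stress granule protein. The Hspa5 site had 86.8% in WT, 97.2% in clone #1 and 97.3% in clone #2, and the G3bp2 site 85.4%, 96.8% and 96.8%. By Fisher's exact test, the lowest adjusted p over the retained sites was 0.598 in clone #1 and 0.480 in clone #2, so neither rise passed. Over all 2329 sites, at the same unadjusted limit, 24 were lower and 90 higher in clone #1, and 25 lower and 109 higher in clone #2. In both clones, 35 of the 2329 were higher and 5 lower. The small counts at retained sites are therefore not read as a result about these sites. Both clones were compared with the same WT library, so agreement between them is not independent. Differences from WT at the retained sites ran from -14.0 to 11.9 points in clone #1 and from -11.8 to 11.4 points in clone #2. Real differences within these ranges could have been missed, and the smallest detectable difference was not determined.

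Coverage moved with the number of retained sites. The share retained was 8.40% of sites whose lower coverage was 26 to 49 calls, 5.32% at 50 to 99 and 4.57% at 100 or more. At 90% or more in DMSO these shares were 43.2%, 39.4% and 36.4%. The part of counting error in the retained sites at low coverage was not tested.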

How the data were processed

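Per the labels and the methods of the study, RNA was read by nanopore direct RNA sequencing, and the authors called m6A with Dorado without restriction to a motif, aligned to mm10 and summed calls per position. The deposited tables give counts of valid, m6A, canonical, other-modification and failed calls and the m6A percent per position. Levels were recomputed here from the counts. Positions (471848 in the METTL3 dataset, 468161 on exons) were placed on GENCODE M21 exons of the same strand, taking 1 transcript per position, and DRACH was read from that transcript. Of 450918 positions above 25 valid calls in both libraries, 38760 were DRACH. The study's own annotation was not used here, so places may differ. The members, gene lists and tests were chosen with earlier results of these data known.

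Median coverage per position was 45 to 64 calls. Intervals are 95% Clopper-Pearson limits. The interval of the ratio is that of the log ratio. Both cover counting error only. Fisher's exact test was used for clones against WT only and was run on simulated data. Recovery there was judged only at lowered sites with a wide margin, after an earlier criterion was not reached. The power at other sites is not given here. Sites named are the 20 with the highest ratio at 100 calls or more in both libraries, the 10 with the highest WT level at 50 calls or more in all 5, those of the 6 genes with the most retained sites (ties in alphabetical order), 3 on each side of the ratio of 0.5, up to 4 per gene list by coverage, Mat2a, and any within 10 bases of a transcript start or changed in both clones (0 of each). Others are described as named after their values were seen. Alternatives were coverage of 50 or 100, DMSO levels of 10%, 50% or 90%, other ratio limits, failed calls in the denominator, protein-coding or non-overlapping exons, no neighbour within 5 bases, and leaving out each clone. Python 3.11.15, pandas 2.3.3, numpy 2.4.6 and scipy 1.17.1 were used.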

Additional observations from a re-analysis of the deposited data

How the results depend on the processing

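With 1 library a condition, the intervals carry no biological error, and 204 of the 378 retained sites could lie under the ratio of 0.5 by counting alone. The number of retained sites was 126 and 40 at 50 and 100 calls or more, 83 at a ratio of 0.75 or more, and 174 with the lower limit of the ratio at 0.5 or more. In the log ratio interval, a library at 100% adds no width. An alternative added after the data were seen therefore took the lower limit from the exact binomial limits and gave 146. The share of sites retained, 6.88%, became 5.06%, 4.57%, 1.51%, 3.17% and 2.66% under these in turn, 5.39% and 11.5% with DMSO levels of 10% and 50% or more, and 41.3% at 90% or more, also added after the data were seen.

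The share of GGACT at retained minus other sites, 25.3 points, was 31.6 at 100 calls, 19.2 at a DMSO level of 50% or more, 31.0 with exact limits and 5.22 at 90% or more. For a junction within 200 bases, -17.1 points became -24.1 at 100 calls and -12.3 at 90% or more. For the 3′ UTR, -2.91 points became -17.5 at a ratio of 0.75 or more. The median WT level, 55.1 points higher at retained sites, was 71.9, 32.3 and 4.85 points higher at DMSO levels of 10%, 50% and 90% or more, and 53.1 at a ratio of 0.75. The cause of these shifts was not tested.

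The 2 sites lower in both clones became 1 with no minimum of the level, 1 with failed calls in the denominator, and 9 by a log2 fold of 1 in both clones without a test. The 0 higher became 71 by that fold and 0 to 2 with a clone left out (2 in clone #2 alone). Among retained sites the counts stayed 0 in both directions under all of these. At the covered retained sites WT had 76.6% or more. A rise by a log2 fold of 1 was therefore impossible there, and that 0 was fixed in advance. Of 100 recomputed values, 71 stayed within the range of counting error or 1.5 times the count, and 29 did not. With failed calls in the denominator, 360 of 377 retained sites were among the 378. No paired analysis was possible because the compared groups share fewer than 2 replicate numbers.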

Other observations

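Outside the DRACH motif, 264 of 604 exonic positions of 25% or more in DMSO kept at least 0.5 of their level in STM2457 (43.7%), against 6.88% of DRACH sites. Mat2a, which encodes a methionine adenosyltransferase that makes the methyl donor S-adenosylmethionine and is a known substrate of METTL16, held 5 such positions, each in the motif ACAGA. Their levels ran from 67.8% to 87.8% in DMSO and from 57.5% to 83.5% in STM2457. Since ACAGA is no DRACH motif, Mat2a had 0 retained sites as defined here.

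At DRACH sites that were not retained, the median ratio was higher on genes with a retained site than on genes without. It was 0.146 and 0.124 for DMSO levels from 25% to under 50%, 0.192 and 0.173 from 50% to under 75%, 0.284 and 0.251 from 75% to under 90%, and 0.386 and 0.354 at 90% or more. These are descriptions of the same 2 libraries that chose the retained sites.

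The share of failed calls in DMSO had a median of 3.33% at retained and 3.23% at other sites. The STM2457 coverage was a median of 0.872 and 0.880 times the DMSO coverage at retained and other sites.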
